A study of Mus musculus with 4 samples.

Results

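The Clca genes encode a family of secreted and membrane-linked proteins of epithelia and some other tissues. They were once named as chloride channels activated by calcium, and are now described as regulators that carry a metalloprotease domain and a von Willebrand factor type A domain and cleave themselves. A cleaved fragment of human CLCA1 is known to hold the calcium-activated chloride channel ANO1 at the cell surface, and mouse Clca1, formerly gob-5, is released with mucus by goblet cells of the intestine and airway.

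The family consisted of 7 protein-coding genes of the 45777 genes in the files, taken by gene symbol: Clca1, Clca2, Clca3a1, Clca3a2, Clca3b, Clca4a and Clca4b. RNA was sequenced from 4 libraries of mouse gastric organoids, which are stomach epithelial cells grown in a gel. The 2 Smad4 Knockout libraries came from lines CPS1 and CPS4 (titled CP3S1 and CP3S4), labelled as lacking Cdh1, Trp53 and Smad4. The 2 Control libraries came from lines CPE and CPG (titled CP3E and CP3G), labelled as lacking Cdh1 and Trp53, so both groups carry the same labelled loss of the adhesion gene Cdh1 and of the tumour suppressor Trp53, and no line with intact Cdh1 and Trp53 was analysed here. All 4 lines spent 2 days without serum or L-WRN supernatant before harvest. Each library is 1 line, the labels do not tie the lines to animals, and the spread between libraries may be partly technical.

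Each library held between 85649781 and 99845702 counts. Smad4, the shared partner of the SMAD proteins in TGF-beta and BMP signalling, was at 54.4 and 52.9 CPM in the Smad4 Knockout libraries, against 94.5 and 103.3 CPM in the Control libraries, a mean of 54.2% of the controls. CPM here is the read count relative to each library's scaled size. Cdh1 was at 30.6 and 44.1 CPM in the knockouts and at 30.7 and 26.02 CPM in the controls, and Trp53 was at 5.43 and 4.69 CPM in the knockouts and at 4.87 and 6.98 CPM in the controls. Reads were thus counted for all 3 genes in every library, and these gene totals do not by themselves show the deletions, since the sources used here do not give the deleted parts. In edgeR's quasi-likelihood test, 0 of 18115 genes passed an adjusted p of 0.05 between the genotypes, which is 0% of the genes tested. With an unadjusted p under 0.05 in that test there were 1153. The other tools tested different sets of genes. DESeq2 called 131 of 24567 genes, and limma on TPM called 0 of 13277. General epithelial genes and the stomach gene Cldn18 were high in every library, at 251.8 and 247.9 CPM for Cldn18 in the Smad4 Knockout libraries and at 254.3 and 254.9 CPM in the Control libraries. Among gland genes Tff2 was at 37.6 and 23.4 CPM in the Smad4 Knockout libraries and at 17.9 and 12.9 CPM in the Control libraries, Atp4a was between 3.54 and 4.02 CPM in every library, Muc6 was at most at 0.163 CPM, and Pgc, Cblif and Atp4b had 0 counts in all 4 libraries.

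All 7 Clca genes passed the filter on low counts, and edgeR called 0 of the 7, as it called 0 of all genes tested. The family was selected on the higher read counts of Clca3b and Clca1 in the Smad4 Knockout libraries, which an earlier look at these same libraries had shown. The values that follow are therefore a description, and no test is given for the members. In 6 of the 7 genes both Smad4 Knockout libraries lay above both Control libraries, and in 1 gene, Clca2, the groups overlapped. Both knockout libraries lay above both controls for 18.2% of all genes tested, and groups did not overlap in either direction for 36.9%. The median fitted log2 fold change of the 7 genes was 1.20, and that of all genes tested was -0.00257. In bulk RNA, more cells of a type and more RNA per cell cannot be told apart.

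**Figure D1:**
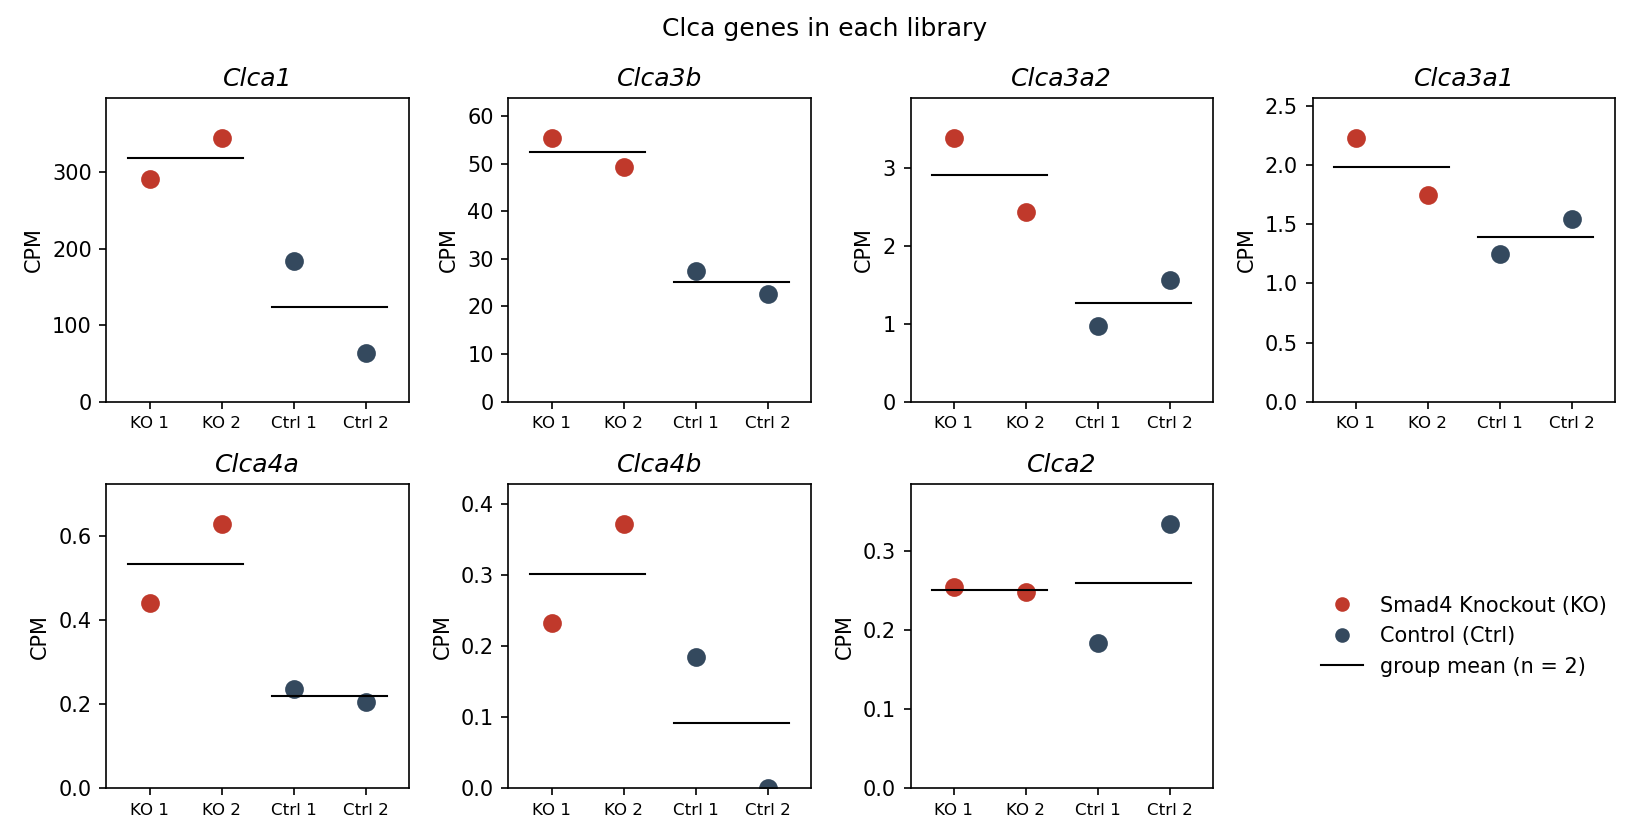
CPM of each Clca gene (vertical axes from 0, a separate scale per gene) in the 2 Smad4 Knockout libraries (red, KO) and the 2 Control libraries (dark blue, Ctrl), with each group's mean as a line. Clca1 lies at 291 and 345.3 CPM in the knockouts and at 184.5 and 63.02 CPM in the controls, and Clca2 is the 1 gene whose groups overlap.

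Clca1 (gene ID 23844), the goblet cell member, had the highest level of the family. Its deposited TPM, which is scaled to gene length and can be compared between genes, was 169 and 187 in the Smad4 Knockout libraries, against 97.8 and 35.7 in the Control libraries. By TPM it ranked 712 and 628 among all genes in the knockouts and 1262 and 3663 in the controls. Its counts were 25149 and 33463 in the knockouts and 18070 and 5841 in the controls, so counting error was small beside the difference between the control lines. The knockout libraries differed 1.19-fold from each other and the controls 2.93-fold, and the lowest knockout lay 1.58-fold above the highest control. The means were 318.1 ± 38.4 CPM in the knockouts and 123.7 ± 85.9 CPM in the controls (SD, n = 2 each), with a log2 fold change of 1.36 (SE 0.46). Control 2 had the lowest level of the 4 libraries. Without Control 2 the log2 fold change was 0.78, and without Control 1 it was 2.34.

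Clca3b (gene ID 229927), first cloned as mClca4 from smooth muscle, was the other member at an appreciable level. It was at 55.5 and 49.3 CPM in the Smad4 Knockout libraries, from 4794 and 4780 counts, against 27.5 and 22.6 CPM in the Control libraries, from 2696 and 2094 counts. The lowest knockout value was 1.79-fold the highest control value. In contrast to Clca1, the replicates lay close together, 1.12-fold apart in the knockouts and 1.22-fold apart in the controls. The means were 52.4 ± 4.35 CPM in the knockouts and 25.1 ± 3.49 CPM in the controls (SD, n = 2 each), with a log2 fold change of 1.06 (SE 0.14). Leaving out any 1 library gave log2 fold changes between 0.93 and 1.22. In the smooth muscle list of 8 genes, Smtn was at 18.5 and 13.9 CPM in the knockouts and at 26.9 and 26.9 CPM in the controls, and Acta2 was at 0.798 and 1.31 CPM in the knockouts and at 0.276 and 0.949 CPM in the controls. Cnn1, Myocd, Myh11 and Tagln were at most at 0.653 CPM in any library, and Des and Actg2 had 0 counts in all of them.

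Clca3a2 (gene ID 80797), known from the involuting mammary gland of the mouse, and Clca3a1 (gene ID 12722), known from lymphatic endothelium, are the closest relatives of Clca3b and were far lower. Clca3a2 was at 3.39 and 2.43 CPM in the Smad4 Knockout libraries and at 0.970 and 1.56 CPM in the Control libraries, with a log2 fold change of 1.20 (SE 0.36). Clca3a1 was at 2.23 and 1.74 CPM in the knockouts and at 1.25 and 1.54 CPM in the controls. Its log2 fold change was 0.51 (SE 0.32), the smallest of the 6 genes above 0, and its lowest knockout value was 1.13-fold its highest control value. Leaving out 1 library moved the log2 fold change of Clca3a1 between 0.32 and 0.69 and that of Clca3a2 between 0.90 and 1.58. The count of Clca3a2 was 1.52 and 1.40 times that of Clca3a1 in the knockouts, against 0.779 and 1.01 times in the controls, so Clca3a2 was the lower of the pair in Control 1 alone. In the endothelial and lymphatic list of 7 genes, the lymphatic receptor Flt4 was at 27.2 and 11.6 CPM in the knockouts and at 31.5 and 33.05 CPM in the controls, and Kdr was at 3.96 and 2.83 CPM in the knockouts and at 4.71 and 4.14 CPM in the controls. The other 5 genes, Pecam1, Cdh5, Lyve1, Prox1 and Emcn, were at most at 0.583 CPM in any library.

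Reads of close relatives can be shared out by the counting step, and the 3 Clca3 genes and the 2 Clca4 genes are such relatives. In GENCODE M21 transcripts of GRCm38, the coding sequences of Clca3a1 and Clca3a2 were identical at 97.1% of aligned bases, those of Clca3a2 and Clca3b at 86.9% and those of Clca4a and Clca4b at 96.04%. Clca1 had at most 65.3% identity to another member and Clca2 at most 63.9%. Of all stretches of 75 bases in the main transcript, 14.3% in Clca3a1, 14.7% in Clca3a2 and 1.92% in Clca3b occurred unchanged in another member. That share was 11.8% in Clca4a and in Clca4b, and 0% in Clca1 and Clca2. No source used here gives the read length. Clca3b held between 87.9% and 92.6% of the counts of the 3 Clca3 genes in each library, and whether reads were exchanged within the trio was not tested. With their counts added up, the Clca3 trio was at 61.1 and 53.5 CPM in the Smad4 Knockout libraries, against 29.7 and 25.7 CPM in the Control libraries (log2 fold change 1.05, SE 0.13).

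Promoter windows, from 250 bases before to 50 after the RefSeq start in GRCm38.p6, were searched on both strands for short motifs in 4 of the 7 members, Clca2, Clca3a1, Clca3b and Clca4b. Clca1 and Clca4a were not searched. The SMAD letters CAGAC occurred in 0 of the 4 windows, and in 49.6% of 32851 RefSeq windows of the same length. The CDX letters TTTATG occurred once in Clca3b and once in Clca4b, against 11.9% of all windows. The FOX letters TGTTTAC occurred once in Clca3b (3.65% of all windows), the GATA letters TGATAA once in Clca3a1 (9.05%), and the letters TATAAA in Clca4b alone of the 4 (13.6%), at 2 places. A match in these letters describes the window and is not a measured binding site.

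Clca4a (gene ID 99663), known from enterocytes of the mouse intestine, and Clca4b (gene ID 99709), its near copy, were detected at no more than 61 counts in any library. Clca4a had 38 and 61 counts in the Smad4 Knockout libraries, against 23 and 19 in the Control libraries. That is 0.440 and 0.629 CPM in the knockouts and 0.235 and 0.205 CPM in the controls (log2 fold change 1.28, SE 0.69). Clca4b had 20 and 36 counts in the knockouts, against 18 and 0 in the controls. The exact Poisson intervals (95%, counting error only) overlapped between Smad4 Knockout 1, at 12.2 to 30.9 counts, and Control 1, at 10.7 to 28.4 counts. The same interval for the count of 0 in Control 2 reached 3.69 counts. The floor used for a count of 0, a one-sided limit of 3 counts per library, corresponds to 0.0324 CPM in Control 2. The fitted log2 fold change of Clca4b was 1.69 (SE 1.62) and 0.71 without Control 2. Without Control 1 the remaining control is at 0, and the knockout mean is 9.31-fold its floor of 3 counts. The counting error of the knockouts is not included in that ratio. With their counts added up, the Clca4 pair was at 0.671 and 1.001 CPM in the knockouts, against 0.419 and 0.205 CPM in the controls (log2 fold change 1.42, SE 0.61).

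Clca2 (gene ID 229933), which in mouse is known from keratinocytes and whose human counterpart is a p53 target, had 22 and 24 counts in the Smad4 Knockout libraries, against 18 and 31 in the Control libraries. The knockout values, 0.255 and 0.248 CPM, lay between the control values of 0.184 and 0.334 CPM, and the log2 fold change was -0.04 (SE 0.84). At this depth no difference in Clca2 was detectable. The log2 fold change was 0.45 without Control 2 and -0.41 without Control 1, so its direction depended on which control was used.

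**Figure D2:**
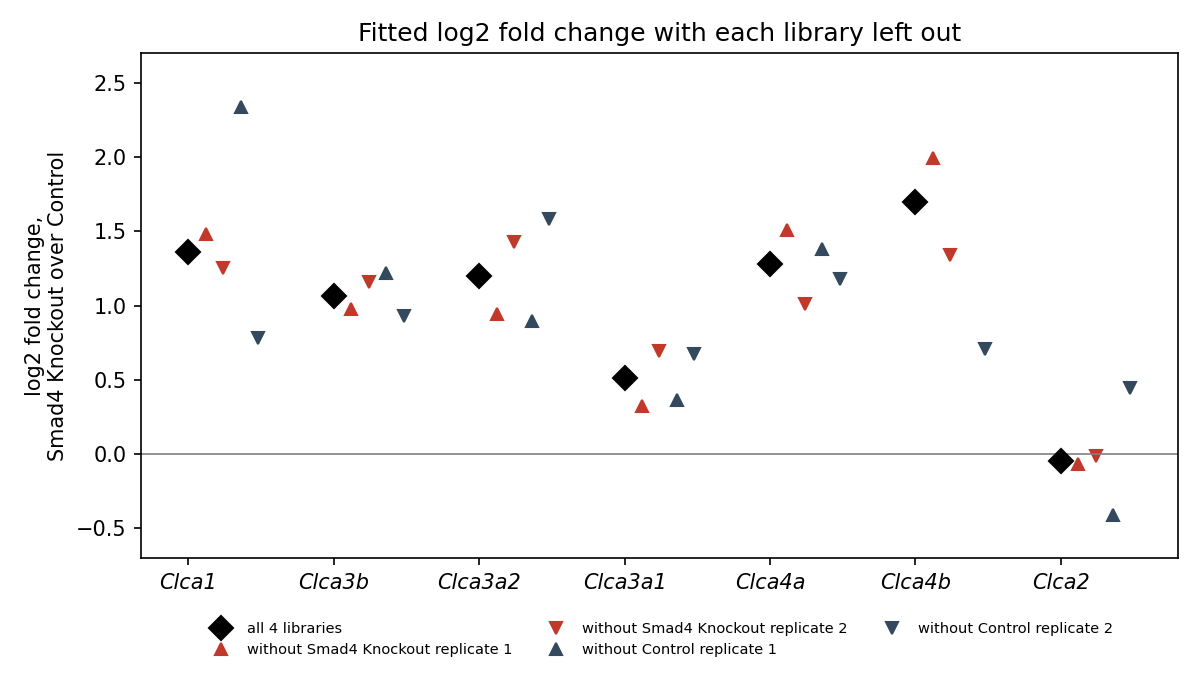
Fitted log2 fold change, Smad4 Knockout over Control, of each Clca gene with all 4 libraries (black diamonds) and with each library left out (triangles, red for a knockout and dark blue for a control library left out). Clca3b stays between 0.93 and 1.22 and Clca1 spans 0.78 to 2.34, and the value of Clca4b without Control 1, where the control is at 0, is not drawn.

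In deposited TPM the family summed to 201.5 and 213.1 in the Smad4 Knockout libraries and to 111.9 and 48.7 in the Control libraries. Clca1 made up 84.05% and 87.8% of this sum in the knockouts and 87.4% and 73.3% in the controls. Clca3b made up 14.2% and 11.1% in the knockouts and 11.6% and 23.3% in the controls. The other 5 genes together held between 1.05% and 3.35%. Clca1 exceeded Clca3b 5.91-fold and 7.89-fold in the knockouts, and 7.55-fold and 3.14-fold in the controls, with the lowest ratio in Control 2.

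Below these genes the order by mean TPM was Clca3a2, Clca3a1 and Clca4a in both groups, at 1.47, 0.895 and 0.290 TPM in the knockouts and at 0.603, 0.539 and 0.114 TPM in the controls. Within single libraries, Clca3a2 was above Clca3a1 in both knockouts, at 1.87 against 1.13 TPM and 1.07 against 0.656 TPM. It was lower in Control 1 (0.435 against 0.461 TPM) and higher in Control 2 (0.771 against 0.618 TPM). Their order is thus not resolved in the controls, and the split of reads within the pair was not tested. Clca4b was at 0.126 and 0.193 TPM in the knockout libraries and at 0.0952 and 0 TPM in the control libraries. Clca2 was at 0.104 and 0.0958 TPM in the knockout libraries and at 0.0700 and 0.135 TPM in the control libraries, so by the mean Clca2 was lowest in the knockouts and Clca4b was lowest in the controls. For Clca3a1 the TPM depends on the gene length used in each library. The ratio of count to TPM, scaled to the gene's median over libraries, was 0.806 in Smad4 Knockout 1 and between 0.995 and 1.01 in the other libraries. Its 1.13 TPM in Smad4 Knockout 1 therefore stands higher beside the other libraries than its count does. Clca3a2 had a ratio of 0.902 in the same library, while in Clca1 and Clca3b the libraries differed by less than 1%.

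The 7 genes lie side by side on chromosome 3, from 144729677 to 145099443 in GRCm38 (369.8 kb), all on the minus strand, with 0 other protein-coding genes between them in RefSeq. Each has 14 exons in its main GENCODE transcript. The flanking genes differed little between the groups. Sh3glb1, a membrane-shaping protein next to Clca3a1, was at 175.5 and 154.2 CPM in the Smad4 Knockout libraries and at 170.6 and 165.1 CPM in the Control libraries. Odf2l, next to Clca2, was at 46.6 and 44.9 CPM in the knockouts and at 47.1 and 45.8 CPM in the controls. Over the 5 flanking genes that were tested, log2 fold changes ranged from -0.11 (Selenof) to 0.08 (Znhit6). Col24a1 had 0 counts in all libraries.

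**Figure D3:**
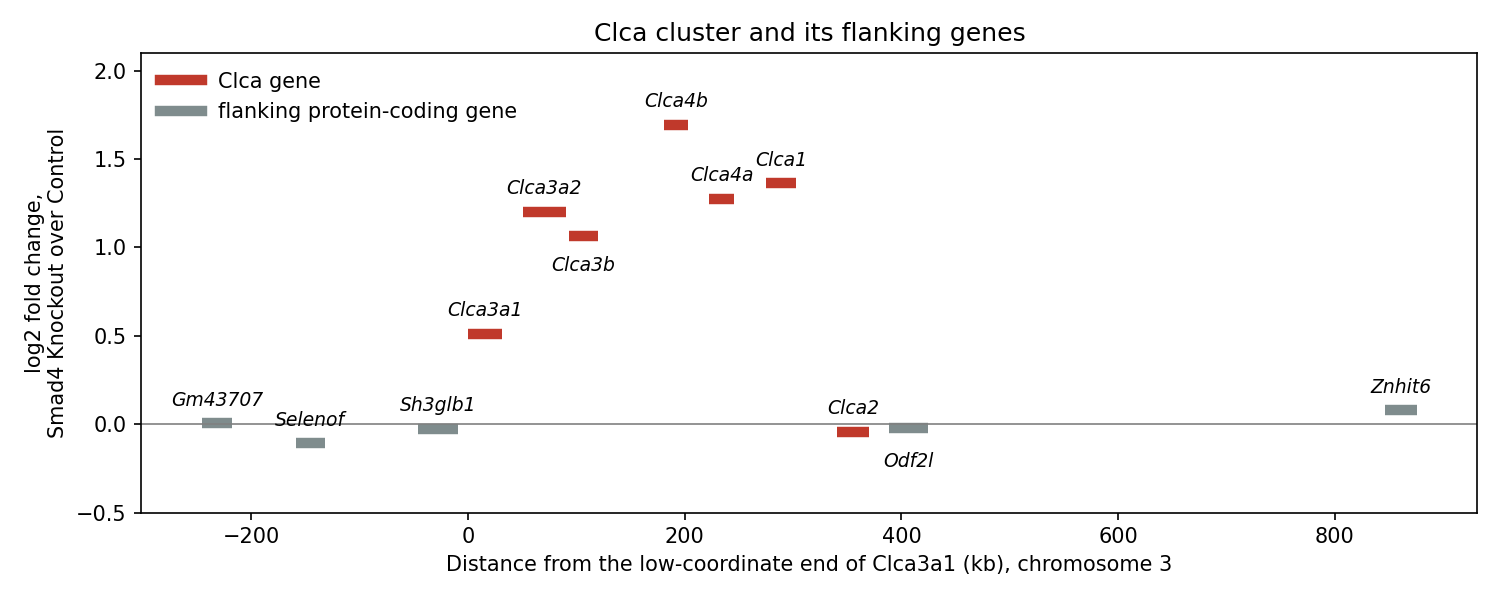
Fitted log2 fold change, Smad4 Knockout over Control, of the Clca genes (red bars) and the nearest tested protein-coding genes on both sides (grey bars), drawn along chromosome 3 as distance in kb from the low-coordinate end of Clca3a1. The 6 Clca genes from Clca3a1 to Clca1 lie between 0.51 and 1.69, the latter for Clca4b (SE 1.62). Clca2 at the far end of the cluster (-0.04, SE 0.84) had at most 31 counts in a library. Its neighbour Odf2l is at -0.02, and SEs are not drawn.

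Genes with a pattern like Clca1 or Clca3b were found by the root mean square difference of centred log2(CPM + 0.5) between genes. It was taken over the 4 libraries and 10159 genes whose mean level reached 5 CPM, without predicted genes and pseudogenes. With 4 libraries this measure describes likeness only. The nearest genes were chosen by these same values, so a shared order of the libraries reflects that choice. The nearest to Clca1 were Mgat4c, a glycosyltransferase (0.225), the proton channel Otop3 (0.277), the gastric transcription factor Nkx6-3 (0.305), the acyl-CoA synthetase Acsm3 (0.310) and the secreted mucosal glycoprotein Dmbt1 (0.324). Mgat4c was at 13.4 and 17.7 CPM in the Smad4 Knockout libraries and at 10.8 and 4.08 CPM in the Control libraries, with Control 2 lowest as for Clca1. Dmbt1 was at 84.7 and 97.8 CPM in the knockouts and at 44.5 and 27.9 CPM in the controls.

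The nearest to Clca3b were the calcium release channel Itpr2 (0.102), the complement regulator Cd55 (0.169), the Slit receptor Robo2 (0.170), Phgr1 (0.175) and the sialyltransferase St8sia4 (0.198). Itpr2 was at 35.3 and 36.3 CPM in the knockouts and at 19.0 and 17.4 CPM in the controls. Clca1 and Clca3b lay 0.531 apart. By this measure 42 genes lay nearer to Clca1 than Clca3b did, and 4043 lay nearer to Clca3b than Clca1 did. The measure depends on the size of the differences, so genes that changed much less than Clca3b can be among the 4043. These are therefore not counts of genes that share a pattern.

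**Figure D4:**
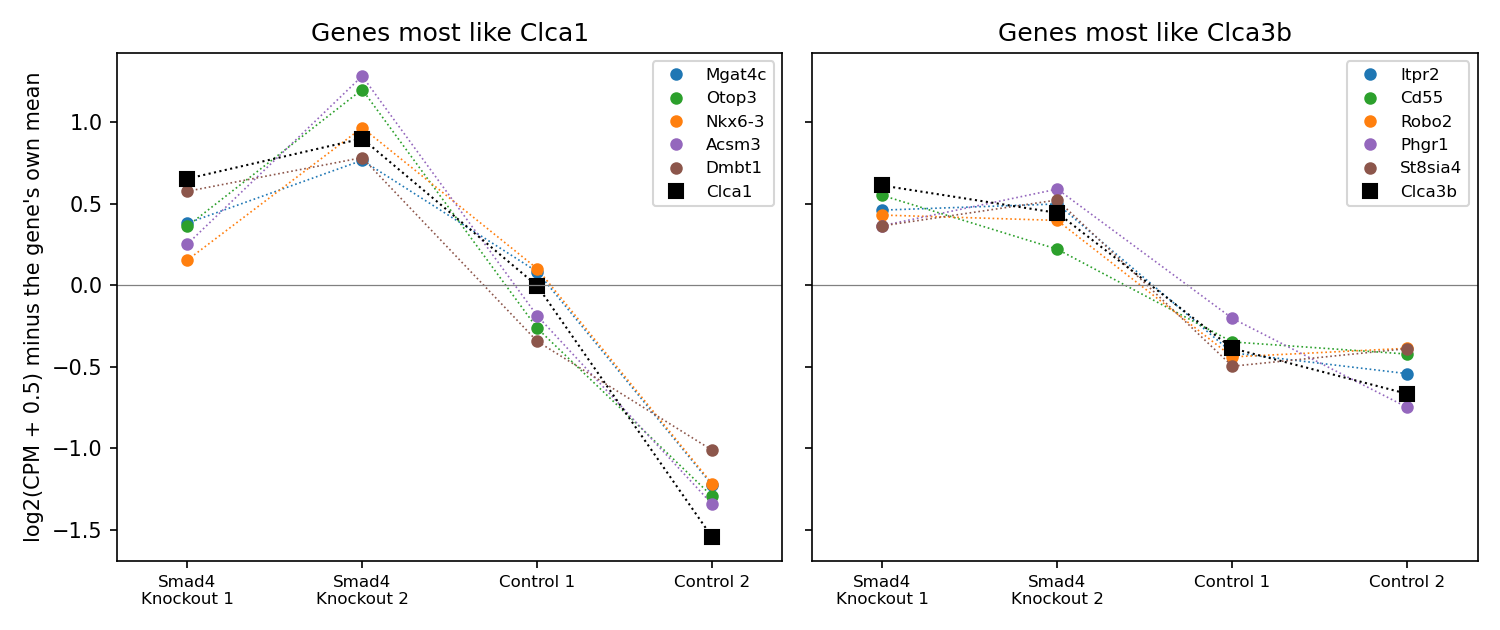
Centred log2(CPM + 0.5) of Clca1 (left, black squares) and Clca3b (right, black squares) and of the 5 genes nearest to each, in the 2 Smad4 Knockout and the 2 Control libraries. Both groups were chosen by likeness over these same 4 libraries, so the order of the controls reflects that choice. Every gene of the Clca1 group is higher in Control 1 than in Control 2. In the Clca3b group the controls lie nearer each other, and are furthest apart for Phgr1 (5.90 and 3.88 CPM).

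The calcium-activated chloride channels, the anoctamins and bestrophins, were set beside the family. Of 13 listed genes 7 were tested and 0 were called, with a median log2 fold change of -0.11. Ano1, the channel that CLCA1 acts on, was at 284.2 and 199.1 CPM in the Smad4 Knockout libraries and at 343.4 and 371.6 CPM in the Control libraries. Both knockout values thus lay below both controls (log2 fold change -0.57, SE 0.18), opposite in sign to Clca1. The same held for 18.6% of all genes tested. The scramblase Ano6 was at 163.0 and 139.4 CPM in the knockouts and at 142.5 and 183.6 CPM in the controls, and Ano10 and Ano9 had log2 fold changes of -0.04 and -0.02.

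Among other chloride transporters 8 of 10 listed genes were tested and 0 were called, with a median of 0.11. The basolateral cotransporter Slc12a2 was at 762.8 and 713.1 CPM in the knockouts and at 731.5 and 758.6 CPM in the controls. Cftr, the cAMP-regulated chloride channel, was at 88.8 and 100.7 CPM in the knockouts and at 70.7 and 51.95 CPM in the controls (log2 fold change 0.63, SE 0.17). The anion exchanger Slc4a2 and the scaffold Slc9a3r1 had log2 fold changes of -0.11 and 0.06.

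Goblet cell products and regulators were compared because Clca1 is a goblet cell protein. Of 20 listed genes 17 were tested and 0 were called, with 16 above 0 and 1 below. Their median log2 fold change was 0.81, against -0.00257 for all genes tested. Klk1, among the 16, had 0 counts in both controls. It passed the low-count filter through the knockouts alone, so its direction was fixed. Muc2 and Atoh1, also above 0, were highest in Smad4 Knockout 2 and overlapped between the groups. Fcgbp, a mucus protein, was at 144.5 and 144.7 CPM in the Smad4 Knockout libraries and at 71.7 and 14.4 CPM in the Control libraries, with Control 2 lowest, as for Clca1. Foxa1, a transcription factor, was at 41.6 and 35.05 CPM in the knockouts and at 26.1 and 45.5 CPM in the controls. Log2 fold changes were 0.77 (SE 0.22) for the glycosyltransferase Galnt12 and 0.27 (SE 0.14) for the vesicle protein Sytl2.

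Other goblet genes, named after their values were seen, differed in level. Tff3, the intestinal trefoil peptide, was at 3.05 and 8.95 CPM in the knockouts and at 0.949 and 0.259 CPM in the controls (log2 fold change 3.31, SE 0.76). Agr2, a disulfide isomerase of mucin folding, was at 11.4 and 29.1 CPM in the knockouts and at 9.11 and 6.43 CPM in the controls. The goblet regulator Spdef was at 7.69 and 14.4 CPM in the knockouts and at 8.04 and 6.40 CPM in the controls, and Ern2 was at 11.7 and 22.4 CPM in the knockouts and at 9.22 and 10.2 CPM in the controls. Muc2, the goblet mucin, was at 0 and 2.53 CPM in the knockouts and at 0.908 and 0.119 CPM in the controls, and Atoh1, the secretory fate regulator, was at 0.0231 and 1.41 CPM in the knockouts and at 0 and 0.119 CPM in the controls. Retnlb and Agr3 had 0 counts in every library. The summed level of the goblet list was 304.5 and 362.0 CPM in the knockouts and 200.6 and 148.7 CPM in the controls. Fcgbp alone gave 144.5 and 144.7 CPM of it in the knockouts and 71.7 and 14.4 CPM in the controls. The part of the goblet list in the Clca1 difference was not tested.

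Surface mucous cells of the stomach were represented by 9 genes, all tested and 0 called. Of these, 7 were above 0 and 2 below, with a median log2 fold change of 0.62. In 3 of the 9 both knockouts lay above both controls, and in 1 both lay below. Those shares were 18.2% and 18.6% over all genes tested. Tff1 was at 31.6 and 61.4 CPM in the Smad4 Knockout libraries and at 24.7 and 16.0 CPM in the Control libraries. Gkn3 was at 15.6 and 59.2 CPM in the knockouts and at 21.9 and 11.8 CPM in the controls, and Vsig1 had a log2 fold change of 0.37. The summed level of the list was 97.6 and 196.5 CPM in the knockouts and 103.0 and 76.8 CPM in the controls, with the highest sum in Smad4 Knockout 2. Gkn1 had the largest log2 fold change of the list (2.24, SE 0.56), at 5.87 and 19.97 CPM in the knockouts and at 2.95 and 2.54 CPM in the controls. The 2 genes below 0 were Psca and Mucl3. Psca was at 13.1 and 18.7 CPM in the knockouts and at 20.1 and 16.3 CPM in the controls. Mucl3 was at 9.80 and 6.33 CPM in the knockouts and at 11.9 and 11.8 CPM in the controls. The part of these cells in the Clca1 difference was not tested.

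Interleukin 13 is known to induce Clca1 in the mouse airway. Il13 and Il4 had 0 counts in all libraries, and of 15 genes of that pathway 8 were tested and 0 were called, with a median of 0.11. Il33 was at 202.2 and 248.2 CPM in the Smad4 Knockout libraries and at 202.3 and 173.3 CPM in the Control libraries. The receptors Il4ra and Il13ra1 and the transcription factor Stat6 had log2 fold changes of -0.26, 0.08 and 0.15. Serpinb2 had the largest log2 fold change of the list (1.03, SE 0.35). Both its knockout values lay above both its control values, as for 18.2% of all genes tested. Arg1, Alox15 and Il13ra2 had log2 fold changes of 0.21, -0.09 and -0.12. The part of this pathway in the Clca1 difference was not tested.

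**Figure D5:**
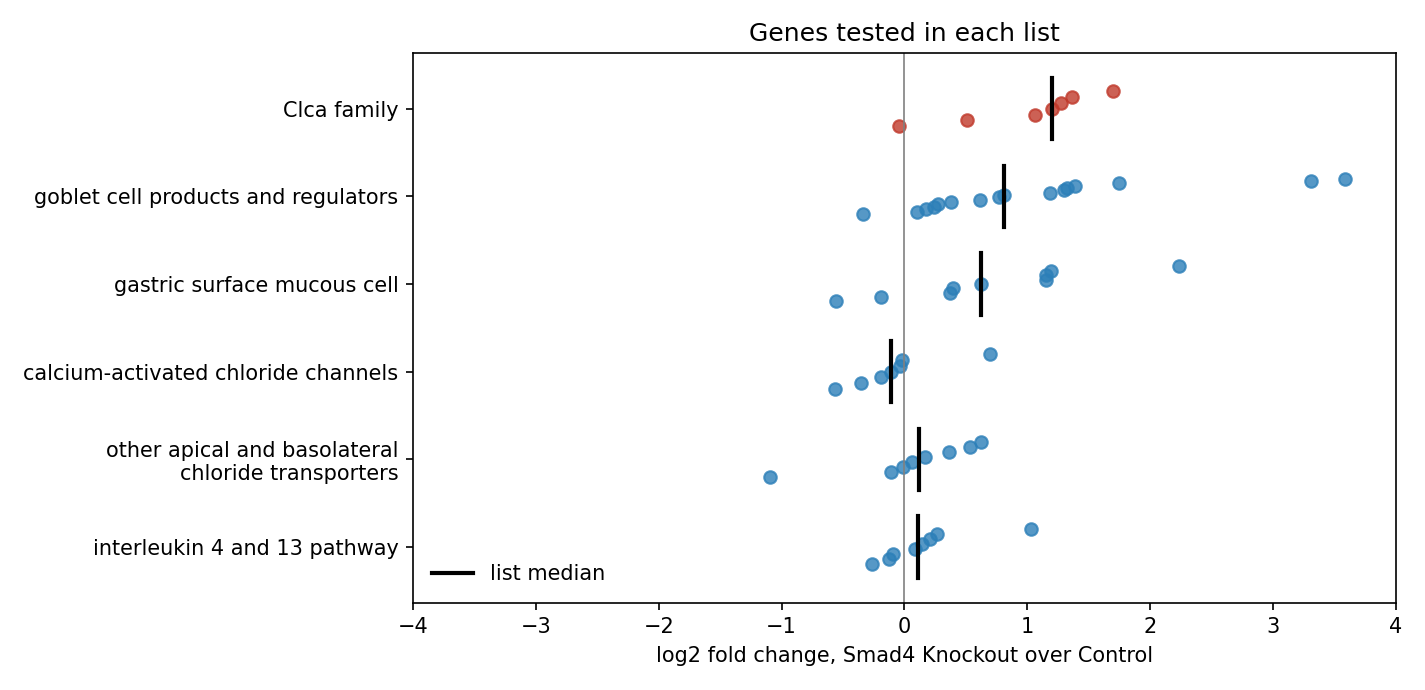
Fitted log2 fold change, Smad4 Knockout over Control, of each tested gene (points) in the Clca family (red) and in 5 further lists (blue), with the median of each list as a black bar. The medians are 1.20 for the Clca family, 0.81 for the goblet list and -0.11 for the calcium-activated channels, and 1 goblet gene with 0 counts in both controls lies outside the axis.

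Markers of other epithelial and non-epithelial cells were read beside the family. In the enterocyte list 6 of 13 genes were tested, with a median log2 fold change of -0.23 and a summed level of 129.5 and 168.6 CPM in the Smad4 Knockout libraries, against 84.7 and 48.3 CPM in the Control libraries. Its leading gene Cdh17 was at 73.2 and 113.4 CPM in the knockouts and at 29.2 and 15.6 CPM in the controls, Vil1 had a log2 fold change of 0.40 and Anpep of -0.69, while Fabp1, Apoa4 and Sis had 0 counts. In the squamous and basal list 13 of 14 genes were tested, with a median of 0.37 and a summed level of 281.4 and 348.9 CPM in the knockouts, against 225.6 and 195.2 CPM in the controls. It was led by Krt4, at 192.1 and 251.3 CPM in the knockouts and at 116.1 and 89.9 CPM in the controls, then Sprr1a (log2 fold change -0.35) and Ivl (0.11), and Trp63 was at most at 0.185 CPM.

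Of the 13 gastric epithelial genes 10 were tested (median -0.07), led by the keratins Krt8, Krt18 and Krt19 with log2 fold changes of 0.06, -0.11 and 0.17. The smooth muscle list summed to 19.4 and 15.9 CPM in the knockouts and to 28.2 and 28.5 CPM in the controls, nearly all of it Smtn, with a median of -0.86. The fibroblast list summed to at most 3.70 CPM, the immune list to at most 4.82 CPM and the endothelial list to at most 38.1 CPM in any library, the last led by Flt4. Their medians were -1.15, 0.05 and -0.51. The part of these cells in the Clca values was not tested.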

How the data were processed

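Total RNA libraries made with a stranded, ribosomal-RNA-depleting kit, per the labels' protocols, came from 4 organoid lines. Per the submitters' processing notes the build was mm10 and the tools included StringTie 2.1.3b, HISAT2 2.1.0, Trimmomatic and bcl2fastq 2.20.0. No source used here gives the counting step or its strand setting. The authors deposited whole-number counts per gene, taken here as estimated counts, and TPM values. A further 5 columns of FPKM, including 1 named for another sample, were not used. The columns of Control 2 carry its title with an added 2. Replicate numbers only name the libraries.

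Counts were fitted with edgeR 4.0.16 in R 4.3.3 (quasi-likelihood F-test, TMM, filterByExpr with a minimum count of 10, genotype as the only term, Benjamini-Hochberg over 18115 genes, threshold 0.05). SE is the log2 fold change divided by the root of F. CPM uses TMM-scaled library sizes. Common dispersion was 0.0680. Depth ranged from 85649781 to 99845702 counts, and a count of 0 allows up to 3. The procedures were tested on simulated data.

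Alternatives were RLE size factors, no low-count filter, DESeq2 1.42.0, limma 3.58.1 on log2(TPM + 1) and log2(TPM + 0.1) for genes of at least 1 TPM in 2 libraries, leaving out each library, and summing close paralogs. Members, lists and alternatives were chosen with earlier results of these data known. Named genes are the 7 members, Smad4, the 5 nearest patterns, the 4 (pathway lists) or 3 (marker lists) highest members by mean CPM and 3 flanking genes on each side. Cdh1 and Trp53 are also in that rule. Other list genes were named after their values were seen. Coordinates and promoter windows are from RefSeq GRCm38.p6, matched by gene ID for all 7 members, with promoters searched in 4 and 1 promoter not reported here, and transcripts from GENCODE M21.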

Additional observations from a re-analysis of the deposited data

How the results depend on the processing

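The number of genes called was 0 in edgeR, with RLE size factors, without the filter on low counts, in limma on TPM with either pseudocount and with close paralogs summed, and 131 in DESeq2, and the cause was not tested. With each library left out it ranged from 0 to 92, the 92 without Smad4 Knockout 1 and 1 without Control 1. The 6 Clca genes whose groups did not overlap were 6 under every scaling and unit tried, and 6 to 7 with each library left out. The added gene was Clca2, which lay lower in the knockouts without Control 1 and higher without Control 2. Apart from rescaling, groups that do not overlap stay so when a library is left out, so the count of 6 could not fall. With all 4 libraries, groups did not overlap in either direction for 36.9% of all genes tested. That share was not taken in the alternatives. With close paralogs summed, 3 of the 4 remaining features (Clca1, the Clca3 trio and the Clca4 pair) did not overlap, since fewer features were counted. The log2 fold change kept its sign in every alternative that gave a value for 6 of the 7 genes, and Clca2 turned positive without Control 2. For the fits with a library left out, the kept sign follows from groups that do not overlap. Only Clca1, Clca3b and Clca3a2 reached the TPM minimum, and Clca3a2 was at 0.61 on the log2(TPM + 1) scale. No paired analysis was possible because the labels give the lines no shared replicate numbers. Depth limits Clca2, Clca4a and Clca4b, which had at most 61 counts in a library.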
